A study of Homo sapiens with 4 samples.

Results

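Of the 63507 distinct positions listed as PABPC4 peaks in the breast cancer line MDA-MB-231, 3203 had their centre in the coding sequence of a protein-coding transcript on the same strand and in no 3′ UTR of such a transcript. They made up 5.04% of the list (95% Wilson interval 4.88 to 5.22%) and lay in 1957 genes. The same list held 18915 peaks centred in 3′ UTRs and 38249 in introns. Of the coding peaks, 62.0% had an A-rich stretch within 50 nt after their end, against 22.4% of all coding positions of the same transcripts. The codons of these stretches were mostly for lysine and glutamate. A smaller group of 176 peaks (5.49%) ended past the stop codon, and the tallest of these were in S100A6 and in genes of ribosomal proteins.

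PABPC4 is a cytoplasmic poly(A)-binding protein that coats the poly(A) tails of mRNAs. Tails are added after cleavage of the pre-mRNA a short way downstream of a signal hexamer, AAUAAA or its common variant AUUAAA, normally in the 3′ UTR. A tail therefore does not usually start in a coding sequence, but coding sequence can hold its own runs of adenosine, because both lysine codons (AAA and AAG) and one glutamate codon (GAA) are rich in A. PAPERCLIP is a crosslinking and immunoprecipitation method in which a poly(A)-binding protein is pulled down and the RNA next to poly(A) is sequenced. In the study, the primer for reverse transcription ended in an unanchored run of T. Priming on A-rich stretches inside an RNA and binding of PABPC4 to such stretches cannot be told apart in these lists.

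The series held 4 samples of MDA-MB-231, a basal, mesenchymal-like line that is the poorly metastatic parent in the study. The labels give no treatment or genetic change other than crosslinking with ultraviolet light, and the cells are a single established line. Of the samples, 2 were precipitated with an antibody to PABPC4 (PAPERCLIP) and 2 with an antibody to HNRNPC (irCLIP, a CLIP method with an infrared-labelled adaptor). Both samples of a protein were merged by the authors before peaks were called, which leaves no replicate error to report, and intervals cover counting error among peaks only. The label of the line was checked on the 3′ UTR peaks. The tallest 3′ UTR peaks of the mesenchymal genes VIM, CD44, AXL and CAV1 held 10197, 331, 1041 and 2714 tags. No 3′ UTR peak was listed for the hormone receptor genes ESR1 and PGR, and those of CDH1 and ERBB3 reached 56 and 57 tags. The median over all 3′ UTR peaks was 45 tags, so those of CDH1 and ERBB3 were low only beside the mesenchymal genes.

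Sequences were read from the hg38 genome, on the strand of the gene and 5′ to 3′, to show what lay at the ends of the peaks. The first set comes from genes with many coding peaks and shows only peaks followed by an A-rich stretch in coding sequence. The EIF5B peak shown had 333 tags, and the tallest of that gene, with 382 tags, had no such stretch after it. The SMC4 peak shown had 101 tags, against 900 in the tallest of that gene. Each line is the 30 nt that begin at the first base after the 3′ end of a peak, and capitals mark the A-rich stretch, defined as a run of at least 6 A or any 10 nt with at least 7 A, with overlapping windows joined.
PRRC2C, chr1:171532835-171532864, plus strand: AAAGAACAAGAAAAGGAAtgtgagctggag
EIF5B, chr2:99364325-99364354, plus strand: aaagaacgcttgAAAAAAGAAgggaaactt
THOC2, chrX:123614057-123614086, minus strand: AAAAAGATGAAAAggacaggaaagagcgga
SMC4, chr3:160414472-160414501, plus strand: tAAAGCCAAAAAActggagaaacaacttca
HSP90AA1, chr14:102084830-102084859, minus strand: AAAAGAAGGAtggtgacaagaagaagaaga
In the annotated frame, 2 of the 6 whole codons in the PRRC2C stretch, 2 of 3 in EIF5B, 1 of 3 in THOC2, 3 of 4 in SMC4 and 2 of 2 in HSP90AA1 were for lysine.

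The second set shows 3 of the 4 tallest coding peaks with a signal hexamer in their last 40 nt and no A-rich stretch after them, without that of RPL8 (3584 tags). These peaks ran over the stop codon, and the windows lie around the end of the mRNA. Capitals mark the hexamer.
S100A6, chr1:153534598-153534627, minus strand: gtacAATAAAttttttttggtcaaatttac
RPLP1, chr15:69455524-69455553, plus strand: gttcAATAAAaagctgaactttactgctgt
LGALS1, chr22:37679768-37679797, plus strand: ccccAATAAAggcagctgcctctgctccct
The hexamer began 31 nt before the peak end in S100A6, 22 nt in RPLP1 and 35 nt in LGALS1.

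The third set shows the same hexamer inside coding sequence, in the tallest peaks of this kind that ended over 100 nt before the stop codon.
TOP2A, chr17:40396275-40396304, minus strand: gaaaAATAAAaagaaaattaaggtaatact
KTN1, chr14:55612228-55612257, plus strand: aaagAATAAAaagaaagaaatccagaatgg
In both, the bases after the hexamer were again rich in A, but no stretch as defined above lay in the 50 nt of genome after the peak.

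The main feature of the coding peaks was the A-rich stretch downstream. It was found wholly within 50 nt after the 3′ end of 1985 of 3203 peaks, or 62.0% (60.3 to 63.6%). Over the 5349872 coding positions of the 1970 transcripts that held these peaks, the share was 22.4%, and 25.7% when each transcript was weighted by its number of peaks. Across all PABPC4 peaks it was 58.5%, so the share among coding peaks was close to that of the list as a whole, which introns dominate. Peaks in 3′ UTRs had a stretch in 31.9% of cases (31.3 to 32.6%), and the coding peaks exceeded them by 30.0 percentage points (95% Newcombe interval 28.2 to 31.8). Intron peaks had one in 71.2% (70.8 to 71.7%), and the coding peaks differed from them by -9.26 points (-11.0 to -7.54). Peaks of 1 gene share a transcript and are not independent, and with 1 peak per gene these differences were 32.0 and -8.60 points.

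The stretches after coding peaks were interrupted rather than pure. Runs of 6 A occurred after 24.3% of coding peaks, 59.2% of intron peaks and 16.0% of 3′ UTR peaks. A stretch with 12 A in 15 nt followed 15.7% of coding peaks and 54.1% of intron peaks, against 1.05% of coding positions. The median longest run of A in the 50 nt after an A-rich coding peak was 5 nt, and the median length of the first stretch was 15 nt (quartiles 11 and 19). The stretch began at a median of 1 nt after the peak end, and within 10 nt in 1502 of 1985 peaks (75.7%). The search began at the peak end, so a stretch that started inside the peak was counted only from that end on.

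**Figure D1:**
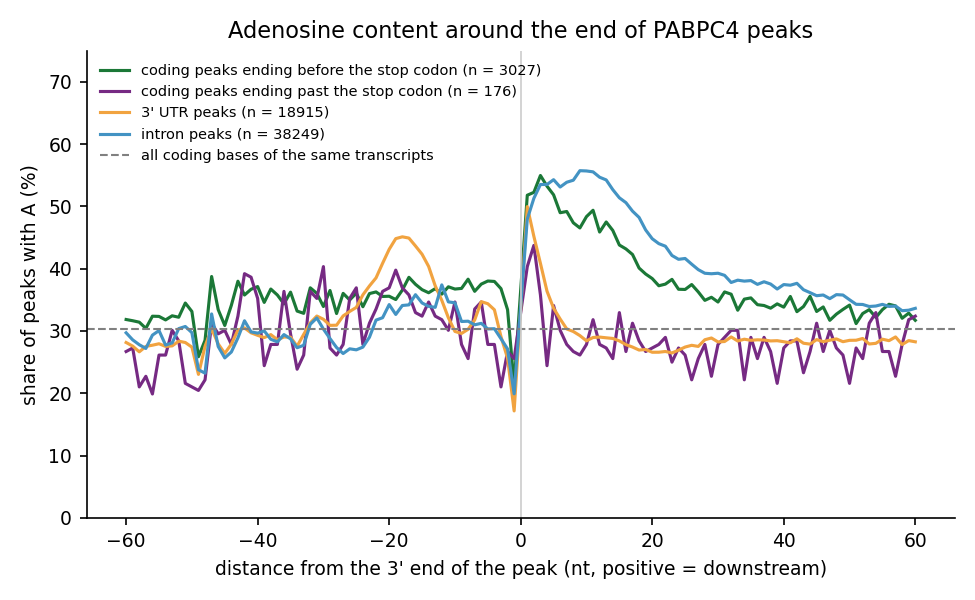
Share of peaks with A (%, y axis) at each position from 60 nt before to 60 nt after the 3′ end of the peak (x axis, nt) for 4 groups of PABPC4 peaks; the dashed line is the A content of the coding sequences that held the peaks, 30.4%. In the 3027 coding peaks that ended before the stop codon A rose from 21.4% at the last base of the peak to 55.0% at the third base after it and then declined gradually, as in introns, whereas in 3′ UTR peaks and in the 176 coding peaks that ended past the stop codon the rise was confined to the first few bases.

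The plot of adenosine content shows the same contrast base by base. In the first 15 nt after coding peaks that ended before the stop codon the mean A content was 49.2%, against 53.5% in introns, 33.3% in 3′ UTRs and 30.8% after coding peaks that ended past the stop codon. At 41 to 60 nt after the end it had returned to 33.3% in the first group. 3′ UTR peaks had a second rise before their end, with 45.1% A at 18 nt upstream, where signal hexamers lie. At this position the coding peaks that ended before the stop codon had 36.6% A.

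The first A-rich stretch lay wholly in coding sequence after 1674 of the 1985 peaks (84.3%). It lay outside the exons of the transcript after 141, either in the following intron or past the transcript end, as in RPS12 and RPL27. It lay across the end of an exon, the last one included, after 92. In the other 78 it lay in the 3′ UTR, across the stop codon or across a later junction. The coding ones came to 1669 distinct stretches with 7809 whole codons. Lysine took 50.2% of these codons, glutamate 18.6%, arginine 7.08% and asparagine 5.38%. Over all 31475 A-rich stretches in the coding sequences of the same transcripts lysine took 39.3% and glutamate 16.3%, and over all codons 7.53% and 8.51%. The lysine codon AAG made up 15.3% of codons after peaks and 9.77% in all A-rich stretches, and AAA 34.9% and 29.5%. Asparagine and isoleucine codons took smaller shares after peaks (5.38% and 3.34%) than in all A-rich stretches (8.66% and 5.23%).

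**Figure D2:**
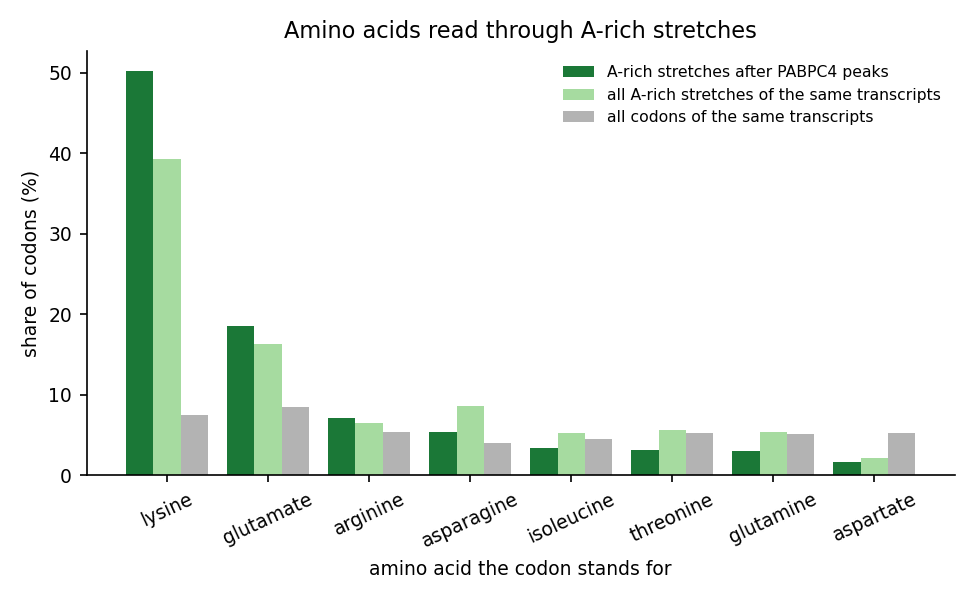
Share of codons (%, y axis) for the 8 amino acids with most codons in A-rich stretches after PABPC4 peaks (x axis), in the 1669 stretches after peaks (dark), in all 31475 A-rich stretches of the same coding sequences (light) and among all codons of these transcripts (grey). Lysine took 50.2%, 39.3% and 7.53% in the 3 sets.

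Runs of lysine were more frequent after peaks. Of the 1669 stretches, 307 (18.4%) held 3 lysine codons in a row, against 1284 of all 31475 (4.08%). Stretches after peaks were also longer, and the shares with 3 lysine codons in a row were not matched for length. The median length was 15 nt after peaks and 11 nt over all, and 15.2% of stretches of at least 20 nt followed a PABPC4 peak, against 9.98% of those of 15 to 19 nt, 3.32% of those of 10 to 14 nt and 2.80% of shorter ones. Most A-rich coding stretches followed no peak, and 5.30% of all did.

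Peaks close to an exon end allowed the genome and the spliced mRNA to be set side by side, since the sequence after the peak then differs between them. There were 1116 peaks that ended less than 50 nt before the end of an exon followed by an intron. An A-rich stretch was present in the genome after 628 of them (56.3%, 53.3 to 59.2%) and in the spliced transcript after 810 (72.6%, 69.9 to 75.1%). In 229 peaks it was present only in the spliced sequence, and in 47 only in the genome. Over all coding positions at the same distances the shares were 20.9% and 25.2%. The gap was widest at the exon edge. Among the 289 peaks that ended within 10 nt of it, 28.7% had a stretch in the genome (23.8 to 34.2%) and 65.7% in the spliced transcript (60.1 to 71.0%), against 17.4% and 24.1% of all coding positions there. Among the 181 peaks that ended 40 to 49 nt away the shares were 72.9% and 73.5%. Peaks that ended 50 nt or more from the exon end had a stretch in 69.0% of 1861 cases. The deposited peaks were placed on the genome, so a tag over a splice junction has no single interval there, and 178 peaks ran past the exon end into the intron. Of these, 34.3% had a stretch in the genome and 48.9% in the spliced transcript. With the spliced sequence used for every coding peak the share with a stretch was 68.3%.

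**Figure D3:**
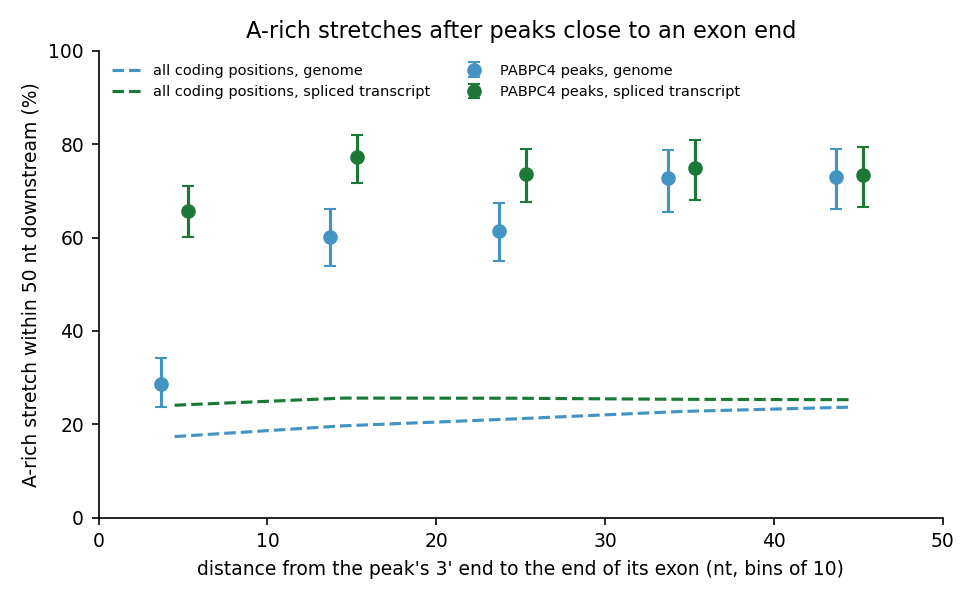
Share of coding peaks with an A-rich stretch within 50 nt downstream (%, y axis, with 95% Wilson intervals) by distance from the peak end to the end of its exon (x axis, bins of 10 nt), read in the genome and in the spliced transcript; dashed lines give the same shares over all coding positions of the same transcripts. In the bin nearest the exon end the genome held a stretch after 28.7% of peaks and the spliced transcript after 65.7%, and from 30 nt on the intervals of both overlapped.

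In the peaks with the longest runs of A, the stretch lay wholly or partly outside the annotated coding sequence. It lay in the intron in SASH1, crossed into it in ACADSB and passed the end of the transcript model in ZNF302. These peaks are shown to set pure runs of A beside the interrupted stretches above. The first 30 nt after each peak were as follows, with the A-rich stretch in capitals.
SASH1, chr6:148514459-148514488, plus strand: AAAAAAAAAAAAAAAAAAAAAAAAAAAAGG
ACADSB, chr10:123051177-123051206, plus strand: tgcatcagAGGTAAAAAAAAAAAAAAAAAA
ZNF302, chr19:34684165-34684194, plus strand: AAGAAGTAAAAAAAAAAAAAAAAAAAAAAA
The longest run within 50 nt was 28 nt in SASH1, 24 nt in ACADSB and 43 nt in ZNF302, whose coding annotation ends 8 nt after the peak in the transcript model used. In PAX6, a developmental transcription factor, a run of 23 nt began at the stop codon. The heights of these 4 peaks were 41, 55, 39 and 121 tags, so long runs of A did not go with tall peaks among them. The peaks with no A-rich stretch were no lower than the others. The median height was 50 tags both in the 1887 peaks with a stretch only (47 to 52) and in the 1113 with neither a stretch nor a signal (47 to 53).

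The coding peaks were spread along the reading frame, with an excess at its end. With each coding sequence cut into 10 equal parts (deciles), each of the first 9 held between 8.09% and 9.90% of peaks, and the last decile held 16.5% (15.3 to 17.9%). Of the 530 peaks in the last decile, 173 ended past the stop codon. The share with an A-rich stretch was highest in the third decile (71.0%) and lowest in the last (43.2%). Peaks that ended within 100 nt before the stop codon made up 10.6% of all, whereas 3.68% of coding positions lay there, and peaks over 2000 nt away made up 26.4% where 43.0% of coding positions lay. These shares of positions were not weighted by peaks, so long coding sequences count for more in them, and transcript length is not separated from position. The median distance from the peak end to the stop codon was 938 nt of spliced sequence (886 to 995), in coding sequences with a median of 2349 nt over peaks.

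**Figure D4:**
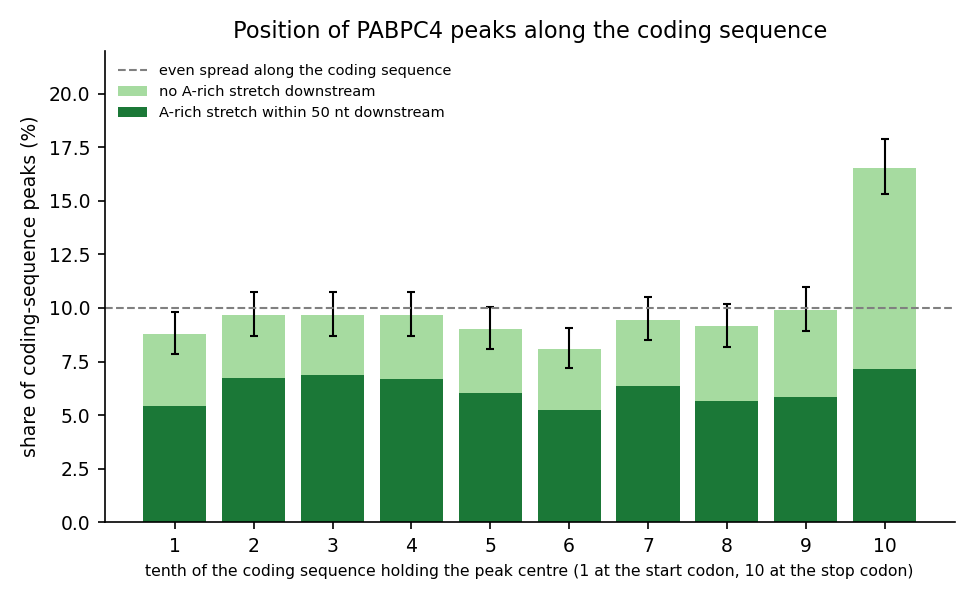
Share of the 3203 coding peaks (%, y axis, with 95% Wilson intervals) in each decile of the coding sequence by peak centre (x axis), split into peaks with (dark) and without (light) an A-rich stretch downstream; the dashed line marks an even spread. The last decile held 16.5% of peaks, 173 of them with an end past the stop codon, and had the smallest part with an A-rich stretch.

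By exon rank, 2394 peaks (74.7%) lay in internal coding exons, 185 (5.78%) in the first, 558 (17.4%) in the last and 66 (2.06%) in the only coding exon. Internal exons held 78.3% of the coding length, first exons 8.13%, last exons 11.5% and single coding exons 2.06%, with each transcript weighted by its peaks. Without weights, first exons held 6.43% and last exons 9.69%. The last coding exon held more peaks than its share of length either way. Peaks that ended past the stop codon, 176 of 3203 in all, are included, such as those of S100A6 and RPLP1 in the last coding exon. The share of last exons without them was not counted. The share in first exons (5.02 to 6.64%) lay below the weighted length only. An A-rich stretch followed 66.1% of peaks in internal exons (64.2 to 68.0%) and 47.0% in the last (42.8 to 51.1%). Exon length was alike. The median exon with a peak was 184 nt long, against 185 nt for coding positions, and exons of at least 1000 nt held 21.0% of peaks and 21.1% of coding positions.

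A signal hexamer stood in the last 40 nt of 203 coding peaks, or 6.34% (5.55 to 7.23%), against 3.08% of coding positions of the same transcripts. Across all PABPC4 peaks the share was 19.4%, and in 3′ UTR peaks it was 48.6% (47.9 to 49.3%), which exceeded that of coding peaks by 42.3 points. Intron peaks had one in 6.40% of cases, and the difference of coding peaks from them was -0.06 points (-0.89 to 0.87). The share differed with the distance to the stop codon. Of the 176 peaks that ended past it, 60 had the hexamer (34.1%, 27.5 to 41.4%), against 136 of the 2687 that ended over 100 nt before it (5.06%, 4.29 to 5.96%; 10 peaks whose transcript has no annotated coding end are counted here) and 7 of the 340 between them (2.06%, 1.00 to 4.19%). The hexamer began at a median of 23 nt before the end of the peaks past the stop codon.

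Signal and A-rich stretch split the peaks into 4 classes. A stretch alone was found in 1887 peaks (58.9%), neither in 1113 (34.7%), a signal alone in 105 (3.28%) and both in 98 (3.06%). The median height of signal-only peaks was 68 tags (48 to 97), an interval that overlapped those of the other 3 classes. Their median distance to the stop codon was 20 nt, against 1143 nt for peaks with a stretch alone. In 45.7% of them (36.5 to 55.2%) the peak ended within 50 nt of an annotated 3′ end of a transcript, against 14.6% (13.1 to 16.2%) of stretch-only peaks and 12.6% (10.8 to 14.7%) of peaks with neither. Over all coding positions, 5.98% lay that close to an annotated end. Split by position, 42 of the 50 signal-only peaks past the stop codon lay at an annotated end (84.0%, 71.5 to 91.7%), and 4 of the 50 that ended over 100 nt before it (8%, 3.15 to 18.8%).

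Of the 176 peaks that ended past the stop codon, 96 (54.5%, 47.2 to 61.7%) ended within 50 nt of an annotated transcript end, against 11.8% of those over 100 nt before the stop codon. Their median width was 49 nt with an upper quartile of 92.2 nt, against 47 and 48 nt for peaks over 100 nt before the stop codon. S100A6, a small calcium-binding protein, had the tallest of all coding peaks with 6673 tags over 235 nt (chr1:153534593-153534827), ending 106 nt past the last coding base. LGALS1, the galactose-binding lectin galectin-1, had a peak of 2991 tags that ended 60 nt past it. Among the 10 tallest genes were also RPLP1 (4293 tags), RPL8 (3584), RPS12 (2904), RPL32 (2859), RPLP2 (2454), RPL27 (2410) and RPL5 (2004), all of which code for ribosomal proteins and all of which had a peak that ended 30 to 71 nt past the last coding base. These peaks count as coding by the position of their centre alone. Without peaks that ended within 100 nt of the stop codon or past it, 66.7% of the remaining 2687 had an A-rich stretch.

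HSP90AA1, the inducible cytosolic chaperone HSP90 alpha, was the exception among the tallest. Its 5 coding peaks held 6335, 2884, 1571, 425 and 233 tags, in exons 5, 4, 9, 9 and 3 of 11, and all ended at least 492 nt before the stop codon. The tallest ended right before the A-rich stretch printed above and that of 1571 tags ended 34 nt before one, while the other 3 had no stretch within 50 nt. The tallest 3′ UTR peak of HSP90AA1 held 1800 tags, so the tallest coding peak stood 3.52 times as high. Other tall peaks over 100 nt before the stop codon were in NUCKS1, a nuclear protein (1528 tags, followed by a stretch 1 nt after its end), TOP2A, which codes for DNA topoisomerase II alpha (1450 tags, with a signal hexamer 11 nt before its end), and SMC4, a condensin subunit (900 tags), and PRRC2C reached 817 tags. The TOP2A peak ended 7 nt before an exon end and had an A-rich stretch in the spliced transcript but not in the genome. The SMC4 and PRRC2C peaks ended within 50 nt of an annotated 3′ end of a transcript.

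Several genes held many coding peaks. Of the 1957 genes, 1311 (67.0%) had 1, 380 (19.4%) had 2 and 72 (3.68%) had 5 or more, and these 72 held 15.3% of all coding peaks. PRRC2C, an RNA-binding protein of stress granules, had 14 peaks of 15 to 817 tags, 10 of them before an A-rich stretch. THOC2, a subunit of the mRNA export complex THO, had 13 of 12 to 324 tags, 9 with a stretch. EIF5B, a translation initiation factor that joins ribosomal subunits, had 12 of 15 to 382 tags, 8 with a stretch, and its density was the highest of the 10 genes with most peaks at 3.28 peaks per kb of coding sequence. SMC4, EIF3A, ANKRD12 and ATRX had 11 each, and CENPF, AKAP9 and DST 10 each. ANKRD12 and the chromatin remodeller ATRX had a stretch after 10 of 11, and EIF3A, the largest subunit of initiation factor eIF3, after 6 of 11. None of these 10 genes had a peak past the stop codon. In 9 of them the tallest coding peak was higher than the tallest 3′ UTR peak, by 11.2 times in EIF5B (382 against 34 tags) and 5.79 times in PRRC2C (817 against 141), and in ATRX it was lower (108 against 261). The genes were picked for their many coding peaks, and the numbers of peaks compared were unequal. EIF5B had 1 peak in its 3′ UTR and PRRC2C 2, while ATRX had 7 and DST 6.

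Most genes with a coding peak also had a 3′ UTR peak, 1709 of 1957 (87.3%, 85.8 to 88.7%). The median ratio of the tallest coding to the tallest 3′ UTR peak of a gene was 0.608 (0.563 to 0.653; quartiles 0.249 and 1.47). In 586 genes (34.3%) the coding peak was the higher. A peak past the stop codon was present in 55 of the 248 genes with no 3′ UTR peak (22.2%, 17.5 to 27.8%) and in 176 of all 1957 (8.99%). In contrast, VIM, the intermediate filament vimentin, had 1 coding peak of 216 tags beside a 3′ UTR peak of 10197. That coding peak ended 35 nt before the stop codon. Heights are tag counts, which rise with the abundance of the mRNA, so heights set side by side across genes or classes of peaks are not adjusted for it.

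**Figure D5:**
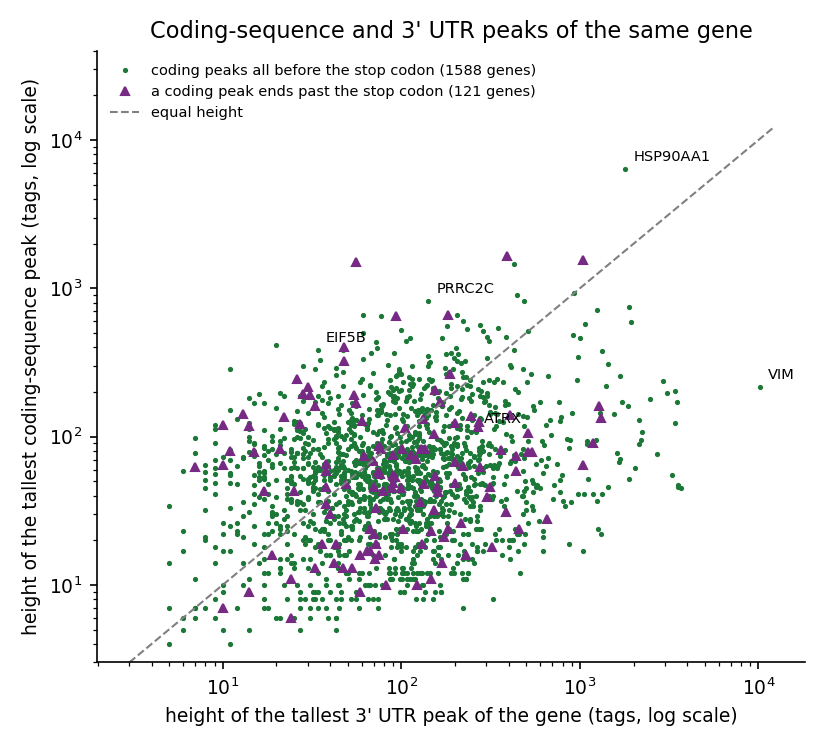
Height of the tallest coding-sequence peak (y axis, tags, log scale) against that of the tallest 3′ UTR peak (x axis, tags, log scale) for the 1709 genes with both; triangles are genes with a coding peak that ended past the stop codon. The dashed line marks equal height, and 586 genes lie above it, among them HSP90AA1, EIF5B and PRRC2C.

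Gene groups differed in how often they held a coding peak. Of the 9924 genes with a coding or 3′ UTR peak, 19.7% had at least 1 coding peak. Among long coiled-coil proteins, whose helices are rich in lysine and glutamate, 22 of 23 genes had one, with 114 peaks, of which 86 (75.4%) preceded an A-rich stretch. They included KTN1, the kinesin receptor kinectin (tallest 514 tags), and the centromere proteins CENPE (437) and CENPF (340). Among lysine-rich nucleolar and chromatin proteins 20 of 24 had one, with a stretch after 54 of 81 peaks (66.7%). TOP2A had the tallest of these, followed by BAZ1A (267 tags), NOP56 (240) and the nucleolar protein NCL (239), none of whose 3 peaks preceded a stretch. All 4 HSP90 genes had one, and 6 of their 11 peaks preceded a stretch. HSP90B1, of the endoplasmic reticulum, reached 713 tags, HSP90AB1 590 and the mitochondrial TRAP1 41. Among translation factors 8 of 14 had one, with a stretch after 21 of 36 peaks. The lists were drawn up with long and lysine-rich proteins in mind and with earlier results of these data known. Their shares therefore describe the listed genes and do not test the groups. Longer coding sequences also have more positions for a peak.

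Among ribosomal protein genes 42 of 76 (55.3%) had a coding peak. Of their 60 peaks, 13 (21.7%) preceded an A-rich stretch, 15 ended past the stop codon and 36 had neither a stretch nor a signal. Their median height was 160 tags, against 50 for all coding peaks, and these mRNAs are among the most abundant of a cell. C2H2 zinc finger genes lay below the background, with 33 of 306 genes (10.8%) and 46 peaks, of which 24 preceded a stretch. The tallest were in ZNF234 (141 tags), ZNF609 (101), ZNF638 (93) and ZNF22 (76). Replication-dependent histone mRNAs end in a stem-loop in place of a poly(A) tail, and 3 of their genes had a coding peak. H4C3 had one of 1607 tags that ended 43 nt past the last coding base, before an A-rich stretch, and H2AC14 and H4C8 had 39 and 35 tags. No coding or 3′ UTR peak was found for the 13 mitochondrial mRNAs.

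Among genes the study itself worked on, PDLIM5, PABPC4, KAT14, TXNRD1 and PGK1 had no coding peak, although each had at least 1 peak in its 3′ UTR. HNRNPC had 2, of 85 and 63 tags in exons 6 and 7 of 9, the second before an A-rich stretch that began 8 nt after its end, beside a tallest 3′ UTR peak of 278 tags. Of all coding peaks, 2 (0.06%) overlapped an HNRNPC peak by at least 1 nt, in DDX27 (61 tags) and LMNA (41 tags), which are named after their values were seen. The HNRNPC list held 9107 distinct peaks. The overlap of other PABPC4 peaks with it was not counted, so it is not known whether this share is particular to coding peaks.

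Of the 1113 peaks with neither feature, 277 (24.9%) had an A-rich stretch in the spliced transcript, 348 had one within 100 nt of the genome and 165 had one when the last 20 nt before the peak end were included. None of these held for 489. Their class had an A content of 29.9% in the 15 nt after the end, close to the 30.4% of the coding sequences. The transcript models matter for membership too. The centres of 975 coding peaks (30.4%) lay in a 3′ UTR of an annotated transcript of another type, such as targets of nonsense-mediated decay. Without them 2228 coding peaks remained, of which 62.5% had an A-rich stretch and 6.55% a signal.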

How the data were processed

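The members, lists and tests were chosen with earlier results of these data known. Per the labels and the study's methods, the authors processed the reads with UMI-tools, cutadapt and BWA (0.7.17) against hg38, and deposited for each protein 1 peak list from its 2 samples pooled. The layout of the lists is that of the CLIP Tool Kit, which the methods name for HNRNPC. Each peak has a height, a count of pooled unique tags that the authors did not scale to depth, and a p-value of at most 0.001 for 97.4% of coding peaks. The depth of each library is not given in the sources used here. Positions listed under several gene IDs were used once. Peaks were placed by their centre on GENCODE 44 (GRCh38), with coding sequence and UTRs of protein-coding transcripts. Each was read in 1 transcript, MANE Select for 97.8%, otherwise the Ensembl canonical one or that with the longest coding sequence. Shares carry 95% Wilson intervals, differences Newcombe intervals and medians exact binomial intervals. Backgrounds were counted over all coding positions. Python 3.11.15, numpy 2.4.6, pandas 2.3.3, scipy 1.17.1 and pysam 0.24.0 were used, and the sequence searches were tested on simulated data. Named were the 10 tallest coding peaks (1 per gene), the 10 genes with most, the 10 tallest with a signal and no A-rich stretch, the 5 with the longest run of A, the 4 tallest genes of each list, mitochondrial mRNAs and genes the study worked on, except for some that are not reported here. The peaks named as tallest over 100 nt before the stop codon, and the sequences of genes with many peaks, of TOP2A and of KTN1, were added after values were seen.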

Additional observations from a re-analysis of the deposited data

How the results depend on the processing

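No paired analysis was possible because each list was made from both samples of a protein pooled, and for the same reason leaving out each replicate was not run. Of 106 alternatives over 12 results, 59 stayed within the interval of the main value (or within 1.5 times a count), 47 moved and 0 changed direction. No coding peak lay on chromosome M, so the alternatives that left it out could not move the coding peaks and count among the 59. A change of direction meant a change of sign, which only results given as differences could readily show. Since no library can be left out, the values describe these pooled lists alone, and tag heights limit what a low peak can show. There were 1996 coding peaks at or above the median height of the list, 38 tags. The percent of coding peaks with an A-rich stretch was 24.3 with 6 A in a row only, 40.9 with 8 A in 10 nt, 15.7 with 12 A in 15 nt, 48.5 within 20 nt, 73.5 within 100 nt, 59.4 with 1 peak per gene, 68.3 in spliced sequence and 66.7 for peaks over 100 nt before the stop codon (this alternative, like the weighting below, was added once the data had been seen). The excess over all coding positions was 20.5, 33.8 and 14.6 points with the 3 definitions, 35.2 within 100 nt, 36.9 with 1 peak per gene, 37.3 for the taller peaks, 43.3 over 100 nt before the stop codon and 36.2 with transcripts weighted by their peaks. The difference from 3′ UTR peaks was 8.25, 21.5 and 4.10 points with the 3 definitions, 25.3 within 100 nt, 32.0 with 1 peak per gene and 34.7 over 100 nt before the stop codon. That from intron peaks was -34.9, -23.9 and -38.5 points, -4.28 within 20 nt, -13.2 within 100 nt and -4.54 over 100 nt before the stop codon. The percent with a signal was 4.25 for AAUAAA only, 31.0 for 12 published variants of the hexamer, 8.37 in the last 60 nt, 4.87 in the last 30 nt, 7.31 with 1 peak per gene, 8.62 without A-rich peaks and 5.06 over 100 nt before the stop codon. Its excess over coding positions was 14.03 points for the 12 variants, 4.23 with 1 peak per gene, 6.19 without A-rich peaks and 1.84 over 100 nt before the stop codon. The last coding exon (single coding exons included) held 19.5% of peaks, 25.03% with 1 peak per gene and 26.7% without A-rich peaks, and the median distance to the stop codon was then 722 and 639.5 nt. The percent of genes with a 3′ UTR peak was 79.3 without A-rich peaks and 89.3 over 100 nt before the stop codon. The median height was 56 tags with 1 peak per gene. The cause of these moves was not tested.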
